A study of Mus musculus with 13 samples.

Results

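Among the genes tested in F4/80+ cells of the mouse fetal liver, 9 were singled out for extreme changes with EKLF, and their levels were followed through every library and into single cells. They were taken from the extremes of 2 rankings, EKLF-/- against EKLF+/+ libraries and EKLF/GFP+ against EKLF/GFP- libraries, out of 15335 genes tested in either comparison. Apol8, Nxpe2, Tecta, Adra2b, Ackr3 and Hsd3b6 (6 genes) were lower without EKLF, and BC021767, Btn1a1 and Ripor3 (3 genes) were higher in EKLF-/- cells. The term "higher without EKLF" holds for the last 3 in the knockout only, since in the reporter libraries all 3 were higher in EKLF/GFP+ than in EKLF/GFP- cells.

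EKLF, encoded by Klf1, is a zinc finger transcription factor that binds CACCC-type sequences and is required for adult beta-globin transcription and for much of the red cell programme. In the fetal liver, erythroblasts mature around central macrophages in erythroblastic islands, and EKLF is active in erythroid cells and also in a share of the F4/80+ macrophages. F4/80, encoded by Adgre1, is a surface antigen of macrophages. Against attached erythroid cells, the study's bulk sort took singlets that were checked on stained slides, and the bead selection for single cells was done with a peptide that blocks contacts between macrophages and erythroid cells.

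All samples were F4/80+ cells from livers of E13.5 embryos. The labels give the C57BL/6 strain for all of them, whereas the study's methods list the EKLF-null line on a different strain background. The genotype groups were EKLF+/+ (3 libraries) and EKLF-/- (3 libraries), the latter carrying a null allele in every cell of the embryo. The reporter groups were EKLF/GFP+ (3 libraries) and EKLF/GFP- (3 libraries), sorted from embryos with a single-copy pEKLF/GFP transgene in which an EKLF promoter drives GFP, so that GFP reads promoter activity and not EKLF protein. RNA of the EKLF/GFP+ cells was extracted with another kit than that of the other groups, and kit and group cannot be told apart. The single-cell library was 1 EKLF+/+ preparation from 2 pooled littermates, enriched with F4/80 beads.

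Total counts on genes were 10695514 to 15362161 in the genotype libraries and 22723279 to 28736396 in the reporter libraries. Klf1 itself was at 305 to 376 CPM (read counts scaled to library size, by TMM in bulk) in EKLF+/+ and at 57.1 to 64.2 CPM in EKLF-/-, and at 28.6 to 45.7 CPM in EKLF/GFP- against 87.3 to 101 CPM in EKLF/GFP+. The 10 erythroid marker genes summed to 12010 to 14301 CPM in EKLF+/+, 4663 to 6902 CPM in EKLF-/-, 3050 to 3865 CPM in EKLF/GFP- and 7761 to 9062 CPM in EKLF/GFP+. The summed levels of the 12 macrophage markers overlapped between the groups, at 303 to 365 against 304 to 458 CPM by genotype and 346 to 525 against 205 to 575 CPM by reporter, although 3 of them were called lower in EKLF-/- (Cd5l, Mrc1 and Timd4) and 1 in EKLF/GFP+ (Csf1r) by edgeR, against 2 lower and 2 higher in EKLF/GFP+ by DESeq2. Of the 8 neutrophil markers, 4 were higher in EKLF-/- and 8 lower in EKLF/GFP+ (summing to 465 to 747 against 3842 to 4444 CPM), and all 6 monocyte markers were lower in EKLF/GFP+. In EKLF-/-, 4 of 5 endothelial, 3 of 4 mesenchymal and 2 of 3 progenitor markers were also lower, and in EKLF/GFP+ 4, 2 and 3 of them. Over all genes tested, 10.6% were called lower and 9.72% higher in EKLF-/-, and 25.8% lower and 18.9% higher in EKLF/GFP+. The erythroid markers thus moved in the same direction as the 6 EKLF-dependent genes in both comparisons. The part of any of these markers in the members' changes was not tested, and in such bulk samples fewer cells of a type and less RNA per cell cannot be told apart.

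Promoter sequences are shown for 3 of the 6 EKLF-dependent genes, to set the one with repeated EKLF and GATA words beside one with a single GATA word and one with neither. The sequences are those of RefSeq on GRCm38.p6, run 5′ to 3′ on the gene's strand from 250 bases before to 50 bases after an annotated start, and have 300 bases each. Capitals mark matches on either strand to the EKLF core CCNCNCCC or to a GATA word, which is AGATAA or a variant of it that ends in G (AGATAG) or begins with T (TGATAA) or does both (TGATAG). Nxpe2 is at chr9:48340849-48341148, Hsd3b6 at chr3:98814394-98814693 and Apol8 at chr15:77756961-77757260, all on the minus strand.
Nxpe2: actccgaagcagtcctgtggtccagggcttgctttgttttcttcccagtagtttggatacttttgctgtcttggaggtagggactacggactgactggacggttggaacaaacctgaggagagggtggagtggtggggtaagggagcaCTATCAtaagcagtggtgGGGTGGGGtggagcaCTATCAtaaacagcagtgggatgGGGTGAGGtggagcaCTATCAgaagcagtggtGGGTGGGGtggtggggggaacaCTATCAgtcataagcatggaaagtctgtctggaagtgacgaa
Hsd3b6: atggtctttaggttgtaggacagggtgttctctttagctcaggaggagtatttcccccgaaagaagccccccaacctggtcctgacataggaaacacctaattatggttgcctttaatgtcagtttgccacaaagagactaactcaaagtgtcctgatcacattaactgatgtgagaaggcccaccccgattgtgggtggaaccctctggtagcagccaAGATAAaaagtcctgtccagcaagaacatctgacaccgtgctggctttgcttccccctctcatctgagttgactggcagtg
Apol8: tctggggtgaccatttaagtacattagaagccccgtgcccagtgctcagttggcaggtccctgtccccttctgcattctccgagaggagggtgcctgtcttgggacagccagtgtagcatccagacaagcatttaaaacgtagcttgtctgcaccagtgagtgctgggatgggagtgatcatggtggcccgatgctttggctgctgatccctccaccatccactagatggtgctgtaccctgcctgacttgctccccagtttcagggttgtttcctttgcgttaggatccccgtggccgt

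In the Nxpe2 promoter, 4 GATA words at -102, -69, -31 and 9 alternated with 3 EKLF cores at -84, -46 and -14, positions being counted from the start site and all matches lying on the opposite strand. No GATA word overlapped an EKLF core. Among 32851 promoters of the same length, 4 (0.0122%) held at least 3 EKLF cores and at least 4 GATA words, a combination that was set after the Nxpe2 sequence had been seen. An EKLF core alone was common, found in 49.5% of promoters, and a GATA word was found in 29.8%. Hsd3b6 held 1 GATA word at -31, and Apol8 held no match to either set. Ackr3 had 1 EKLF core at -78 and Adra2b 1 at -38, the nearer of the annotated Tecta starts had 1 at -19, and Ripor3 had none. These matches describe letters only and no binding was measured. Of the Nxpe2 transcripts in the reporter libraries, Nxpe2-201, which begins at the start shown, took 5.01% to 6.08% of the gene's TPM (a level per transcript length), and Nxpe2-202, which begins close by at 48340834, took 26.8% to 30.9%. Nxpe2-203, which begins at 48353454, took 46.0% to 51.1%. For Apol8, 3 transcripts begin near the start shown, of which Apol8-201 had no TPM in any library and Apol8-203 and Apol8-205 took 8.82% to 24.1% and 4.09% to 25.6%. Apol8-202 and Apol8-204, which begin at 77755273 and 77755239, took 24.8% to 40.8% and 22.0% to 52.7%. Most Hsd3b6 TPM (90.0% to 95.4%) were likewise assigned to Hsd3b6-202, which begins at 98811108 and not at the start shown.

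The first comparison asks how each gene's RNA differs in F4/80+ cells that lack EKLF. Apol8, a member of the apolipoprotein L family of lipid-binding proteins (chr15:77747798-77757003, minus strand, GRCm38), had the largest fall among 2033 ranked genes, that is, genes that were called, did not overlap between the groups and averaged 100 normalized counts or more. Its levels were 122, 115 and 123 CPM in EKLF+/+ replicates 1 to 3 and 0.347, 0.306 and 0.154 CPM in EKLF-/- replicates 1 to 3. These rest on 1320, 1732 and 1480 reads against 5, 4 and 2 reads, so that the gene was nearly silent in every EKLF-/- library. The ratio of mean CPM was 446.1 and the log2 fold change was -8.74 (SE 0.19, n = 3 per group), a value that chose the gene and is given without a test.

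Nxpe2, of the neurexophilin and PC-esterase domain family (chr9:48318006-48353454, minus strand), had 225, 190.1 and 257 CPM in EKLF+/+ and 1.88, 1.61 and 1.46 CPM in EKLF-/-. No EKLF-/- library came near the EKLF+/+ libraries, and the log2 fold change of -7.07 (SE 0.185) gave the gene rank 4 among the falls. Between Apol8 and Nxpe2 in that ranking stood Slc2a4 at -7.86 and Dmtn at -7.66, and the next after Nxpe2 was Sh3tc2 at -5.88. The gene lies inside Nxpe4, which is annotated on the other strand, and the strand setting of the read counting is not given in the sources used here. Nxpe4 reads were far fewer, at 23.2 ± 2.40 CPM in EKLF+/+ and 12.3 ± 1.99 CPM in EKLF-/- (SD, n = 3).

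Adra2b encodes the alpha-2B adrenergic receptor, a G protein-coupled receptor for adrenaline and noradrenaline (chr2:127363208-127367221, plus strand). It had 56.2, 65.4 and 69.8 CPM in EKLF+/+ and 8.90, 4.36 and 8.40 CPM in EKLF-/-. The receptor RNA was still counted in every EKLF-/- library, with 57 to 128 reads. The log2 fold change was -3.14 (SE 0.25), rank 26 among the falls.

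Tecta, Ackr3 and Hsd3b6 were chosen by the reporter libraries, so the knockout was a comparison that their choice did not use. Tecta encodes alpha-tectorin, a matrix protein of the tectorial membrane of the inner ear (chr9:42329619-42399929, minus strand). Its reads were few, with 26, 46 and 19 in EKLF+/+ (2.40, 3.06 and 1.58 CPM) and 2, 0 and 0 in EKLF-/- (0.139, 0 and 0 CPM). The gene passed the filter on low counts only through the EKLF+/+ libraries, so a fall was fixed in advance and no p is given. The fitted log2 fold change was -5.33 (SE 0.69), and -7.93 without EKLF-/- replicate 1, which leaves libraries with 0 reads only. From the summed reads, 91 against 2, the ratio at equal depth was 48.6 with a 95% counting interval from 13.1 to 407.

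Ackr3, an atypical chemokine receptor that takes up CXCL12 and signals through arrestins (chr1:90203980-90216751, plus strand), had 10.3, 19.99 and 13.7 CPM in EKLF+/+ and 3.13, 4.43 and 2.77 CPM in EKLF-/-. It fell 4.25-fold (log2 fold change -2.09, SE 0.29, edgeR adjusted p = 0.0025). Hsd3b6, a 3-beta-hydroxysteroid dehydrogenase of steroid synthesis (chr3:98805504-98814443, minus strand), had 54.2, 117.9 and 94.4 CPM in EKLF+/+ and 23.98, 38.6 and 21.7 CPM in EKLF-/-. It fell 3.16-fold (log2 fold change -1.66, SE 0.31, edgeR adjusted p = 0.00893). Both genes tested in the knockout, Ackr3 and Hsd3b6, fell, where 10.6% of the 12753 genes tested were called lower and 20.3% in either direction. Tecta, Ackr3 and Hsd3b6 were each highest in EKLF+/+ replicate 2.

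**Figure D1:**
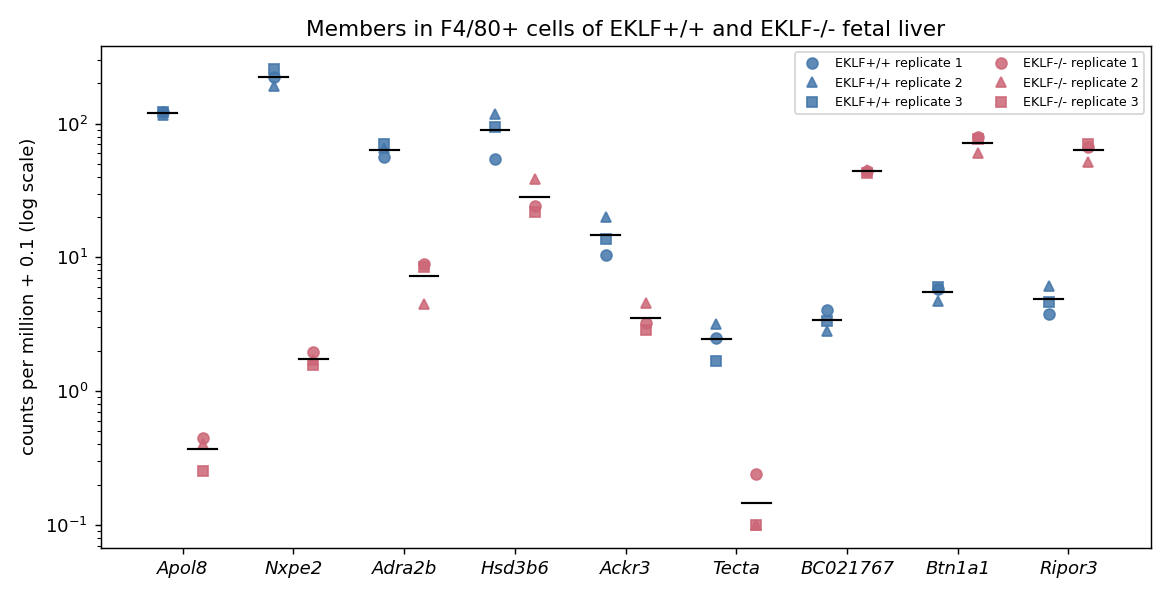
Level of each of the 9 genes in the EKLF+/+ and EKLF-/- libraries, in CPM on a log axis, with a point for each library and a bar at the mean of 3. Mean CPM differs 446.1-fold for Apol8, 135.9-fold for Nxpe2 and 3.16-fold for Hsd3b6, and BC021767, Btn1a1 and Ripor3 lie higher in EKLF-/-.

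Another 3 genes led the rises in EKLF-/-, and their folds were close to each other. BC021767, a transcribed unprocessed pseudogene (chr3:94661830-94670696, minus strand), went from 3.97, 2.73 and 3.24 CPM in EKLF+/+ to 44.3, 45.0 and 42.8 CPM in EKLF-/-. Btn1a1, a butyrophilin of the immunoglobulin superfamily known for its role in milk fat secretion (chr13:23456992-23465901, minus strand), went from 5.73, 4.6 and 5.89 CPM to 79.2, 60.3 and 76.1 CPM. Ripor3, of a family of cell polarization regulators (chr2:167980164-168010618, minus strand), went from 3.70, 6.06 and 4.56 CPM to 67.3, 52.0 and 70.7 CPM. No EKLF-/- library overlapped an EKLF+/+ library for any of them, which the ranking required and which held upwards for 22.9% of all genes tested.

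Their mean ratios were 13.3 for BC021767, 13.3 for Btn1a1 and 13.3 for Ripor3, with log2 fold changes of 3.74 (SE 0.16), 3.74 (SE 0.17) and 3.71 (SE 0.21). These are the values that chose the genes, and the next rise in the ranking was Car1 at 3.29. Across all genes tested, 9.72% were called higher in EKLF-/- and the median log2 fold change was 0.016. BC021767 shares 69.4% of its 31-base words with Cgn, which lies 89373 bases away, so reads of either gene may be assigned to the other. For Cgn itself the knockout gave a log2 fold change of 0.05 (edgeR adjusted p = 0.915). Hsd3b6 also shares sequence with its paralogs, 29.0% of its words in all and 23.3% with Hsd3b2. The other members share at most 1.02%.

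The second comparison asks how the genes differ between fetal liver F4/80+ cells sorted as positive and as negative for GFP from the EKLF promoter. The negative cells were not free of Klf1 RNA, which was at 28.6 to 45.7 CPM in EKLF/GFP-. The reporter libraries share no sample with the genotype libraries. Ackr3 had the largest rise of 4970 ranked genes, from 2.37, 0.598 and 0.678 CPM in EKLF/GFP- replicates 1 to 3 to 14.3, 8.42 and 27.9 CPM in EKLF/GFP+ replicates 1 to 3. Hsd3b6 went from 70.2, 21.4 and 26.2 CPM to 371, 257 and 744 CPM. Tecta went from 1.69, 0.493 and 0.89 CPM to 6.53, 4.68 and 17.8 CPM.

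The log2 fold changes of Ackr3, Hsd3b6 and Tecta were 3.77 (SE 0.61), 3.54 (SE 0.56) and 3.23 (SE 0.61), and they are given without a test because they chose the genes. After Tecta in the ranking came Pdzk1ip1 at 3.05 and Ppbp at 2.46. The spread within a group was wide and shared, with replicate 3 highest, then replicate 1, then replicate 2 in EKLF/GFP+ for all 3 genes. In EKLF/GFP- the order was replicate 1, 3 and 2, again for all 3. Leaving out single libraries in turn, the log2 fold change lay between 3.22 and 4.70 for Ackr3, 3.01 and 4.25 for Hsd3b6 and 2.46 and 3.80 for Tecta. The lowest values were those without EKLF/GFP+ replicate 3 and the highest those without EKLF/GFP- replicate 1.

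Apol8, BC021767, Btn1a1 and Ripor3 had been among the first 3 falls or rises in the knockout and were tested here. Their p-values, too, need not be independent of the choice. Apol8 rose from 13.6, 16.3 and 12 CPM in EKLF/GFP- to 37.1, 46.6 and 47.0 CPM in EKLF/GFP+ (log2 fold change 1.64, SE 0.14, edgeR adjusted p = 6.74e-05). The ratio of its means was 3.12, and the EKLF/GFP- libraries held 283 to 463 Apol8 reads each.

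BC021767 rose from 0.503, 0.845 and 0.806 CPM to 3.34, 2.74 and 3.14 CPM, a log2 fold change of 2.09 (SE 0.26, edgeR adjusted p = 0.000348). Btn1a1 rose from 1.76, 1.87 and 1.40 CPM to 4.71, 4.06 and 4.33 CPM, a log2 fold change of 1.38 (SE 0.19, edgeR adjusted p = 0.000623). Ripor3 rose from 0.898, 1.13 and 1.23 CPM to 2.32, 2.36 and 2.43 CPM, a log2 fold change of 1.13 (SE 0.21, edgeR adjusted p = 0.00334). The 3 genes that rose when EKLF was lost were therefore also higher in the EKLF/GFP+ cells.

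Ripor3 lost its call where transcript lengths were corrected for (log2 fold change 0.83, edgeR adjusted p = 0.109) and in limma on the authors' normalized counts (0.89, adjusted p = 0.0985). All 4 genes tested were called higher, against 18.9% of the 14259 genes tested (44.7% in either direction). Cgn had a log2 fold change of 0.28 (edgeR adjusted p = 0.393).

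Nxpe2 and Adra2b, which were not among the first 3 of either ranking, are described only. Nxpe2 was at 134, 162 and 104 CPM in EKLF/GFP- and 359, 349 and 340.5 CPM in EKLF/GFP+, a ratio of 2.62. Adra2b was at 17.3, 18.8 and 16.1 CPM and at 51.4, 57.1 and 58.5 CPM, a ratio of 3.20. For each of the 9 genes, the lowest EKLF/GFP+ library exceeded the highest EKLF/GFP- library. For Ackr3, Hsd3b6 and Tecta this was a condition of their choice, and over all genes tested 25.2% were separated in this direction, so nothing is read from the count of 9. The reads of Klf1 followed the same order between the groups.

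**Figure D2:**
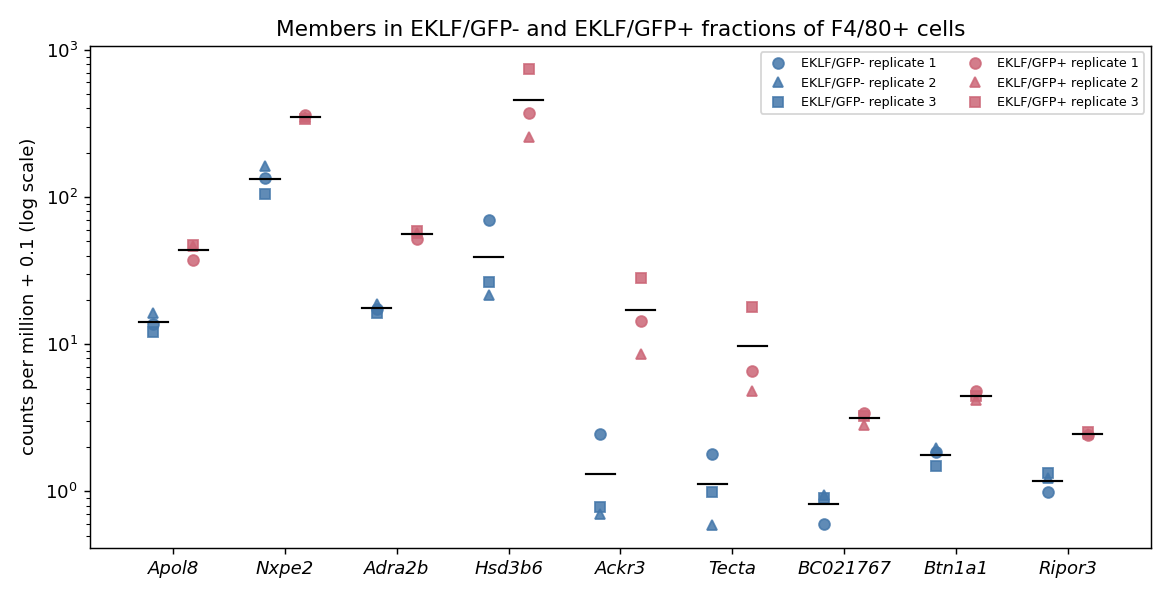
Level of each of the 9 genes in the EKLF/GFP- and EKLF/GFP+ libraries, in CPM on a log axis, with a point for each library and a bar at the mean of 3. All 9 genes lie higher in EKLF/GFP+, and the points of Ackr3, Hsd3b6 and Tecta spread more widely within a group than those of the others.

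**Figure D3:**
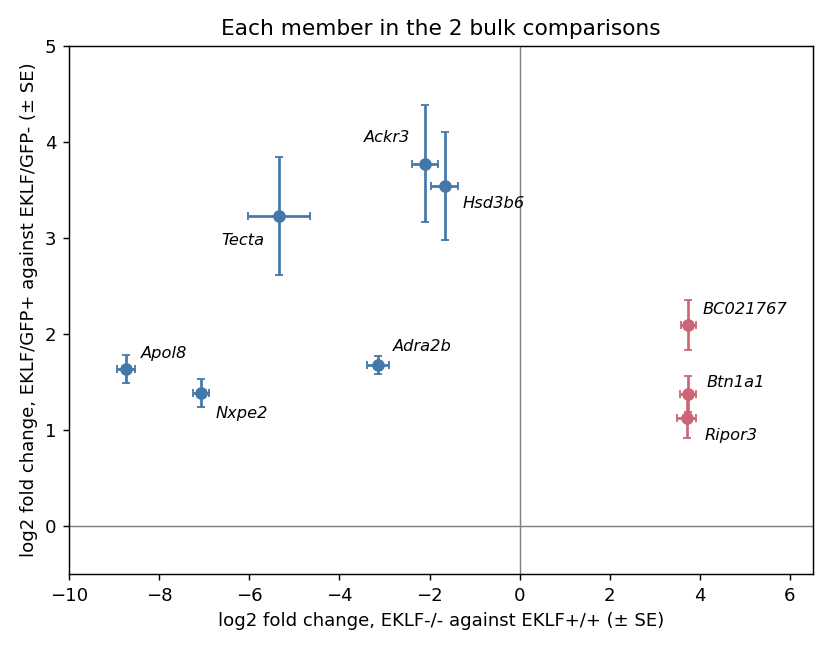
Log2 fold change of each gene in EKLF-/- against EKLF+/+ and in EKLF/GFP+ against EKLF/GFP-, with bars for the standard error. The 6 EKLF-dependent genes have opposite signs in the 2 comparisons, while BC021767, Btn1a1 and Ripor3 are above 0 in both.

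Set on a scale per length, the members ran over more than 2 orders of magnitude. In EKLF+/+ libraries, RPKM (CPM per kilobase of the union of annotated exons) were 54.6 ± 8.22 for Nxpe2, 49.3 ± 17.9 for Hsd3b6 and 40.5 ± 1.37 for Apol8 (SD, n = 3). Hsd3b6 could not be set apart from its neighbours, as its spread covers both. Adra2b followed at 15.9 ± 1.73 RPKM and Ackr3 at 4.37 ± 1.47 RPKM. The 3 rising genes were low, at 1.85 ± 0.348 RPKM for BC021767, 1.31 ± 0.171 for Btn1a1 and 1.12 ± 0.282 for Ripor3, Btn1a1 and Ripor3 lying within their spread of each other. Tecta was lowest at 0.317 ± 0.101 RPKM.

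In EKLF-/- BC021767 was highest at 24.5 ± 0.64 RPKM, followed by Btn1a1 at 17.4 ± 2.46, Hsd3b6 at 15.6 ± 5.10 and Ripor3 at 14.9 ± 2.35, which did not differ beyond their spread. Apol8 was at 0.0908 ± 0.0344 RPKM, and Tecta was again lowest, at 0.0063 ± 0.0109 RPKM. In EKLF/GFP+ libraries, TPM ran from 264 ± 29.4 for Nxpe2 and 209 ± 121 for Hsd3b6 to 0.845 ± 0.091 for Btn1a1 and 0.527 ± 0.041 for Ripor3 (SD, n = 3). Values per length of the 2 sets come from different pipelines and were not compared.

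The single-cell library, with 3093 cells kept, shows which cells held these RNAs. Cells fell into 14 clusters, and 3 of them, clusters 4, 6 and 7, were named erythroid-like by markers (619 cells). Cluster 4 was led by Mns1, Cited4 and Klf1, cluster 6 by Hemgn, Car2 and Slc4a1, and cluster 7 by globins. The names rest on rebuilt clusters, since no cell annotation was used. Clusters 0 and 1 were macrophage-like (1063 cells) and cluster 10 megakaryocyte-like (87 cells). Cells of 1 library are not replicates, so values carry exact Poisson or Wilson 95% intervals for counting error only and no test.

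Nxpe2 was an RNA of nearly every cell of clusters 4 and 6. Of its 2176 counts, 94.8% lay in erythroid-like cells, and 64.2% at a coarser clustering resolution. There a cluster of 244 cells led by both Pf4 and the cluster 4 genes Cited4 and Mns1 was named megakaryocyte-like, so the erythroid-like name of cluster 4, which had 1 marker among its 10 leading genes, depends on the resolution. Its level was 100.5 CPM (94.8 to 106) in cluster 4, 150.2 CPM (139.9 to 161) in cluster 6 and 34.2 CPM (28.1 to 41.2) in cluster 7. It was counted in 87.9%, 90.9% and 30.9% of these cells, and in 38.1%, 47.4% and 12.2% after thinning each cell to 5000 counts. Macrophage-like cells had 1.92 CPM and a count in 2.63% of cells, at a median depth of 12139 counts against 27248 in erythroid-like cells. After thinning these shares were 1.03% and 33.4%. In hepatoblast-like cells, at a median of 25304 counts, Nxpe2 was counted in 4.69% of cells and Adra2b in 7.81%.

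Apol8 and Adra2b were found in a narrower range of cells. Of 228 Apol8 counts, 174 lay in cluster 6, where it reached 32.7 CPM (28.1 to 38.0) and 49.5% of cells, against 1.91 CPM (1.2 to 2.90) in cluster 4 and 1.88 CPM (0.690 to 4.09) in cluster 7. Of 188 Adra2b counts, 116 lay in cluster 6, at 21.8 CPM (18.0 to 26.2) against 2.61 CPM (1.76 to 3.73) in cluster 4 and 4.07 CPM (2.17 to 6.97) in cluster 7. Both thus peaked in the cluster led by Hemgn and Slc4a1. The interval of Adra2b overlapped that of cluster 13, whose 53 shallow cells gave 10.2 CPM (2.10 to 29.7) from 3 counts. In thinned cells Apol8 was counted in 13.8% of cluster 6 and 1.26% of cluster 4, and Adra2b in 11.2% and 0.837%. In macrophage-like cells the levels were 0.509 CPM for Apol8 and 0.396 CPM for Adra2b, counted in 0.847% and 0.564% of cells.

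Btn1a1, although it rose in EKLF-/- cells, was found mostly in the same clusters as Apol8 and Adra2b in this EKLF+/+ library. It had 70 counts, of which 63 (90.0%) were in erythroid-like cells and 36 in cluster 6. Its level was 6.78 CPM (4.75 to 9.38) in cluster 6 and 1.74 CPM (1.06 to 2.69) in cluster 4, against 0.0566 CPM in macrophage-like cells.

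Ripor3 differed from it, with 36 of 65 counts (55.4%) in the megakaryocyte-like cluster 10. There it was at 10.5 CPM (7.36 to 14.5) and in 25.3% of cells (17.3% to 35.3%), and in erythroid-like cells at 1.05 CPM (0.650 to 1.61). Thinned to 5000 counts, Ripor3 was found in 7.06% of cluster 10 cells and 0.487% of erythroid-like cells. In bulk, the 5 megakaryocyte markers summed to 163 to 274 CPM in EKLF+/+ and 236 to 333 CPM in EKLF-/-, and to 76.5 to 96.4 CPM in EKLF/GFP- and 127 to 201 CPM in EKLF/GFP+. Their part in the Ripor3 values was not tested. BC021767 had 1.5 estimated counts in 2 cells, too few to place it.

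**Figure D4:**
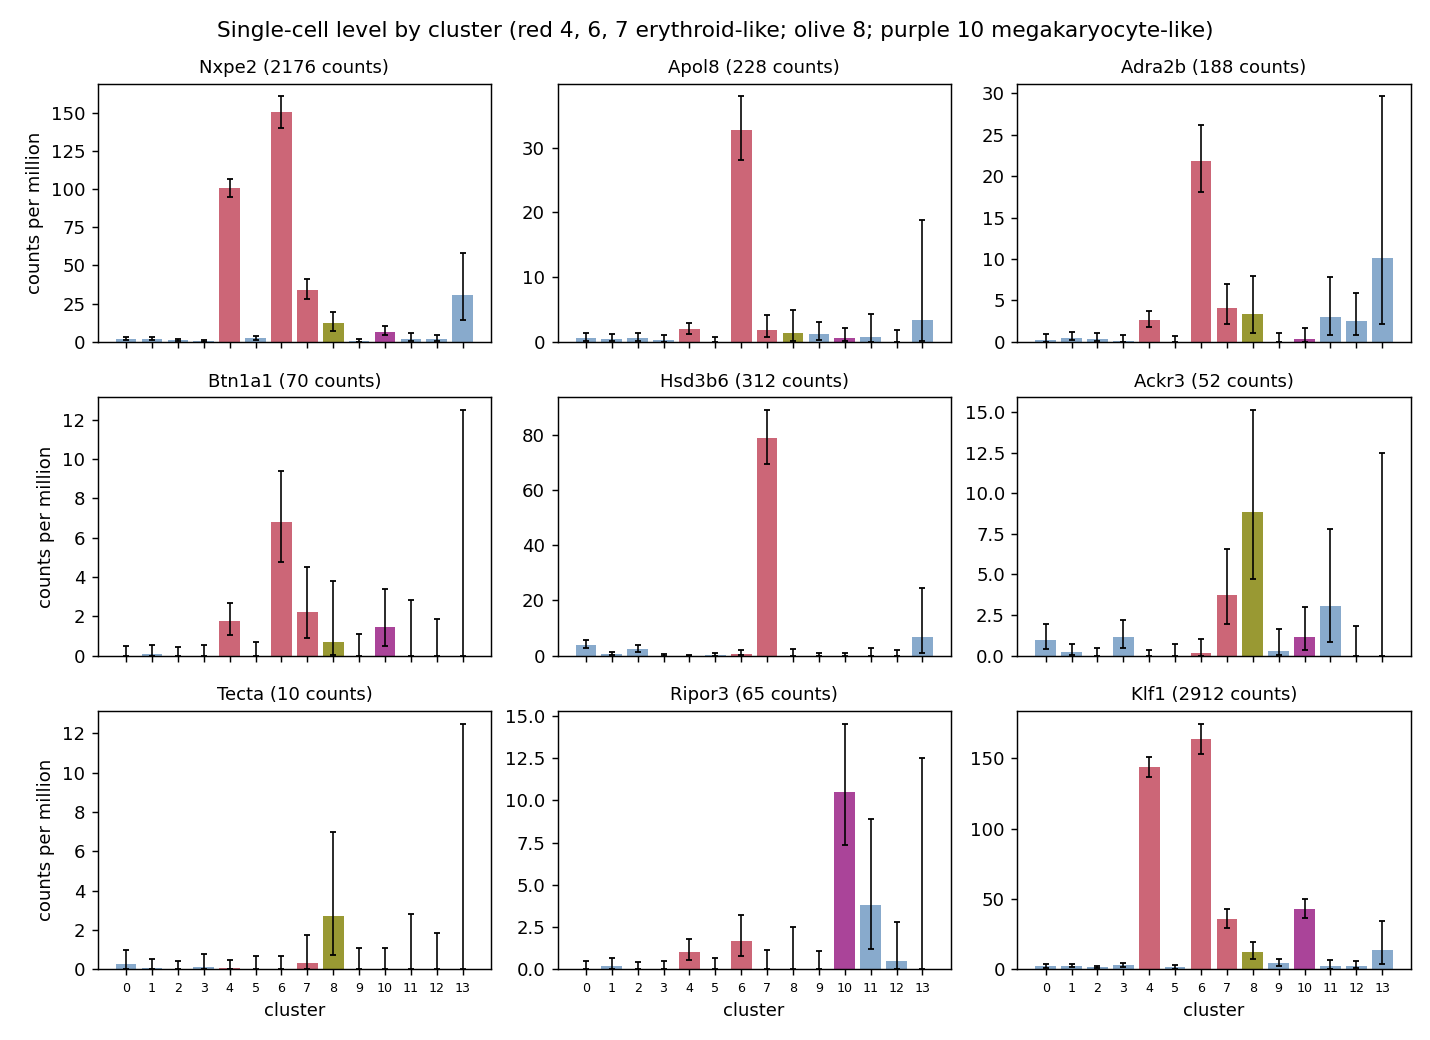
Level of each member except BC021767, and of Klf1, in the 14 single-cell clusters, as the sum of counts in CPM, with clusters labelled by number. Colours set apart the erythroid-like clusters 4, 6 and 7, cluster 8 and the megakaryocyte-like cluster 10. Nxpe2 is spread over clusters 4 and 6, Apol8 and Adra2b stand out in cluster 6, Hsd3b6 in cluster 7 and Ripor3 in cluster 10.

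Hsd3b6 was not placed with Nxpe2, Apol8 and Adra2b. Its 312 counts came from only 62 cells, and 251 of them lay in cluster 7, at 78.7 CPM (69.2 to 89.0) in 38 cells. Cluster 4, with a median of 46857.5 counts per cell, had 0 counts, which allows a level of up to 0.261 CPM (3 counts of the total), and cluster 6 had 4 counts (0.753 CPM). Cluster 7 was also where the embryonic globins Hbb-y and Hba-x, transcribed mainly in primitive erythroid cells, reached 62577 and 11595 CPM, against 1131 and 245 CPM in cluster 6.

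The relation was followed cell by cell with the embryonic share of globin counts, namely Hbb-y, Hba-x and Hbb-bh1 as a percentage of these and the adult globins Hba-a1, Hba-a2, Hbb-bs and Hbb-bt, in cells with at least 50 globin counts. A limit of 20% was set after the values had been seen, and 2 erythroid-like cells, or 63 cells over all clusters, lay between 10% and 30%. Of the erythroid-like cells, 40 were at or above it and 570 were under it, with 9 not scored. The 40 cells held 238 Hsd3b6 counts, a level of 337 CPM (296 to 383), in 31 cells. The other 570 cells held 17 counts, 0.885 CPM (0.515 to 1.42), in 11 cells.

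Over all clusters, 85 cells at or above the limit held 288 Hsd3b6 counts and 2507 cells under it held 23. The median embryonic share of the 61 scored cells with Hsd3b6 was 44.8%, against 3.70% in macrophage-like cells. Hsd3b6 counts in clusters 0 and 2 numbered 29 and 20, in 9 and 5 cells. Hbb-y was at 2870 and 1482 CPM in these clusters, and it was counted in every cluster, at 110.2 CPM in cluster 9 and 117 CPM in the hepatoblast-like cluster 12. The part of free RNA in these counts was not tested.

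Apol8, Nxpe2 and Klf1 had lower levels in these cells. The 40 erythroid-like cells rich in embryonic globin had 0 Apol8 counts and 5 Nxpe2 counts (7.08 CPM, 2.30 to 16.5), while the 570 others had 202 and 2056 counts (10.5 and 107 CPM). A count of 0 over the 40 cells allows, at 3 counts of the total, a level of up to 4.25 CPM for Apol8. Klf1 was at 12.7 CPM (5.83 to 24.2) in the 40 cells and at 136 CPM (131 to 142) in the 570. Of erythroid-like cells with Hsd3b6, 9 of 42 (21.4%) also had a Klf1 count, against 119 of 121 cells with Apol8 (98.3%), 105 of 113 with Adra2b (92.9%), 412 of 447 with Nxpe2 (92.2%) and 53 of 53 with Btn1a1. Over all erythroid-like cells the share was 78.7%. These shares depend on depth, which is greater in clusters 4 and 6 (medians 46857.5 and 25119 counts) than in cluster 7 (17628).

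**Figure D5:**
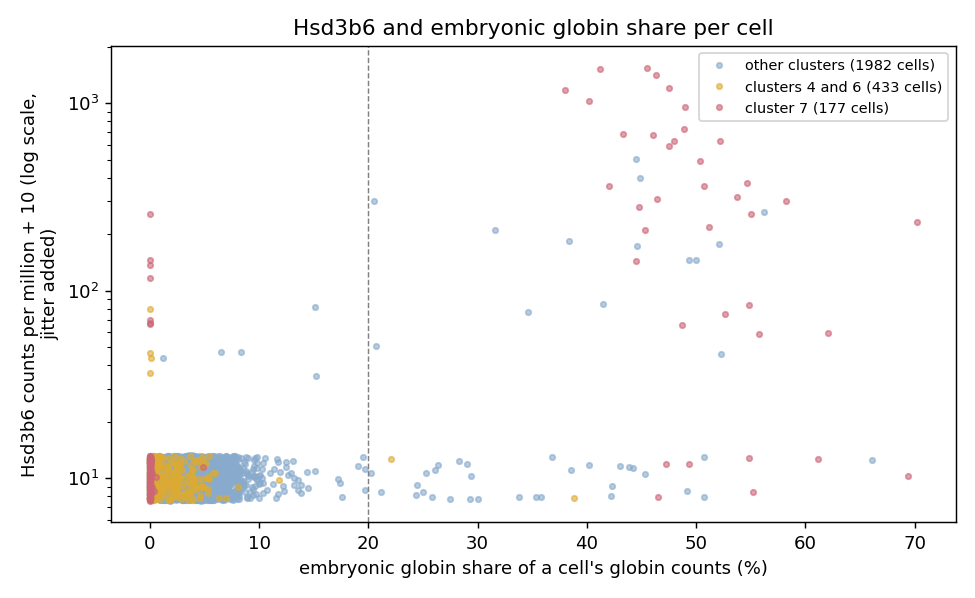
Hsd3b6 level in CPM (log axis, with an offset and jitter added) against the embryonic share of globin counts in single cells, in percent. Colours mark cluster 7, clusters 4 and 6, and the other clusters, and a dashed line stands at 20%. Of the 61 scored cells with Hsd3b6, 45 are at or above 20%, while most other cells are under it.

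Ackr3 and Tecta, the other genes of the reporter ranking, were sparse. Ackr3 had 52 counts in 37 cells, of which 13 were in erythroid-like cells. Its highest level was in the unnamed cluster 8, led by Tmcc2, Ypel4 and Xpo7, at 8.86 CPM (4.72 to 15.2), followed by cluster 7 at 3.76 CPM (1.94 to 6.57), and these intervals overlap. The best-scoring marker list of cluster 8 was the macrophage-like one, but no marker was among its 10 leading genes, so it was left unnamed. Over all clusters, cells rich in embryonic globin had 11 Ackr3 counts (6.77 CPM, 3.38 to 12.1) and the others 36 (0.560 CPM, 0.392 to 0.775). Tecta had 10 counts in 10 cells, 4 of them in cluster 8, and in cells rich in embryonic globin 3 counts against 7 in the rest (1.85 CPM, 0.381 to 5.40, against 0.109 CPM, 0.044 to 0.224).

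In the bulk libraries the embryonic globins moved with these genes in part. Hba-x fell from 1090, 2350 and 1598 CPM in EKLF+/+ to 41.9, 39.7 and 40.1 CPM in EKLF-/- (log2 fold change -5.37, SE 0.29, edgeR adjusted p = 1.43e-05), and like Hsd3b6, Ackr3 and Tecta it was highest in EKLF+/+ replicate 2. Hbb-y fell by 2.16 on the log2 scale (SE 0.27, edgeR adjusted p = 0.0015), and Hbb-bh1 had a log2 fold change of 0.34 (edgeR adjusted p = 0.241). These globins were highest in EKLF+/+ replicate 3, not 2. In EKLF/GFP+ all 3 rose, Hbb-y by 1.79, Hba-x by 2.18 and Hbb-bh1 by 2.45 on the log2 scale (edgeR adjusted p = 0.000691, 0.000668 and 7.38e-05), in the comparison that chose Hsd3b6, Ackr3 and Tecta. In EKLF/GFP- cells, Hba-x was at 318, 135 and 263 CPM, Hbb-y at 1001, 593 and 984 CPM and Hbb-bh1 at 65.7, 46.2 and 64.5 CPM, with the replicates in the same order as for Hsd3b6. The order differed in EKLF/GFP+, where Hbb-y was lowest in replicate 1. The part of embryonic erythroid RNA in the values of Hsd3b6, Ackr3 and Tecta was not tested.

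Over the 14 clusters, the genes whose log2(CPM + 1) was most like that of each member were listed among 10879 genes with at least 200 counts, as a description in which all points share 1 library and unequal depths. For Nxpe2 these were Rhd (r = 0.98), Sptb (0.98) and Redrum (0.97), and for Apol8 Fn3k (0.88), Fn3krp (0.87) and Ift140 (0.87). For Adra2b they were Rnf123 (0.90), Btrc (0.89) and Pkhd1l1 (0.88), and for Btn1a1 Urod (0.96), Pcyt1b (0.94) and Plek2 (0.93). Klf1 ranked 8 for Btn1a1, 25 for Nxpe2, 76 for Apol8 and 161 for Adra2b, and 478 for Hsd3b6, 751 for Ripor3 and 2094 for Ackr3. The closest genes to Hsd3b6 were Hbb-bh0 (0.98), Hbb-y (0.94) and Hba-x (0.89), and to Ripor3 Vwf (0.91), Col5a1 (0.89) and F2r (0.88). For Ackr3 the values were 0.92 for Zfp874a, 0.86 for B230354K17Rik and 0.84 for Ube2h.

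Relatives and partners of the members were listed to show how far each change was shared. Of 12 other apolipoprotein L genes, 1 could be tested, Apol11b, 104512 bases from Apol8. It had 3.39 ± 0.635 CPM in EKLF+/+ and 0.362 ± 0.228 CPM in EKLF-/- (SD, n = 3), where no library reached 10 counts, so it was tested only through EKLF+/+ and no p is given. It rose in EKLF/GFP+ (log2 fold change 1.25, SE 0.18, edgeR adjusted p = 0.000691). Of the other NXPE genes, both that were tested fell in EKLF-/- (10.6% of all genes did), Nxpe3 by 0.80 and Nxpe4 by 0.915 on the log2 scale (edgeR adjusted p = 0.00946 and 0.00782). In EKLF/GFP+, Nxpe4 rose by 1.55 while Nxpe3 was lower (edgeR adjusted p = 9.24e-05 and 0.0171).

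Among 12 ligands, partners and relatives of Ackr3, 2 of the 8 tested fell in EKLF-/- (against 10.6% of all genes), Ackr1 and Arrb1, which encodes beta-arrestin 1, with log2 fold changes of -4.22 and -1.81 (edgeR adjusted p = 2.09e-05 and 0.000266). Both rose in EKLF/GFP+, by 1.70 and 1.09 (edgeR adjusted p = 4.98e-05 and 3.34e-05). Cxcr4, the signalling receptor for CXCL12, went the other way, with log2 fold changes of 0.47 in EKLF-/- and -1.84 in EKLF/GFP+ (edgeR adjusted p = 0.0334 and 3.43e-05). Arrb2, Grk2 and Grk3 were also lower in EKLF/GFP+. The ligand gene Cxcl12 had adjusted p-values of 0.102 and 0.93 by edgeR.

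None of the 7 other tectorial membrane genes had enough reads to be tested in either set.

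Among the other steroid synthesis genes, of 8 tested in EKLF-/-, 1 was called higher, Fdx1 (log2 fold change 0.70, edgeR adjusted p = 0.0299), with 2 higher by DESeq2 and 2 at an unadjusted p under 0.05, against 9.72% of all genes called higher. None was lower by edgeR or DESeq2, and 1 was at an unadjusted p under 0.05. In EKLF/GFP+, Hsd3b1 and Cyp11a1, the side-chain cleavage enzyme, rose by 1.41 and 1.08 on the log2 scale (edgeR adjusted p = 0.00132 and 0.0126), and Fdxr and Hsd3b7 were lower, against 18.9% of all genes higher and 25.8% lower. Of the 5 tested butyrophilins and milk fat partners, Plin2, a lipid droplet coat protein, rose in EKLF-/- (log2 fold change 1.23, SE 0.12, edgeR adjusted p = 0.000401). Plin2 and Btnl10 rose in EKLF/GFP+, by 0.45 and 1.68 (edgeR adjusted p = 0.0202 and 3.12e-05), while 3 genes, Xdh and Mfge8 among them, were lower by edgeR and 2 by DESeq2, beside the same shares of all genes.

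The relatives of Ripor3 gave another picture. Of 10 other Ripor and small GTPase genes tested, none was called in EKLF-/- by edgeR, with 1 lower and 1 higher at an unadjusted p under 0.05 and 1 higher by DESeq2. In EKLF/GFP+, where Ripor3 rose, 7 were lower (25.8% of all genes tested were) and none was higher by edgeR, by DESeq2 or at an unadjusted p under 0.05. Among the 7 were Ripor1 (log2 fold change -0.69) and Ripor2 (-1.04, edgeR adjusted p = 0.0103 and 6.97e-05).

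Within 250 kb of the 9 genes lay 92 annotated protein-coding genes, of which 61 were tested in the knockout, with 11 lower and 5 higher. Over all genes tested, 10.6% were lower and 9.72% higher. Of the 11, 3 (Apol11b, Hist1h2af and Kcng1) passed the filter on low counts only through EKLF+/+, so their fall was fixed and nothing is read from the count. Beside Apol8, Myh9, 3584 bases away, had a log2 fold change of -0.16 (edgeR adjusted p = 0.382). Tuft1, 2958 bases from BC021767, was like it higher in EKLF-/- (0.97, edgeR adjusted p = 0.00287) and in EKLF/GFP+ (0.70, edgeR adjusted p = 0.0138). Ptpn1, 779 bases from Ripor3, was not called in EKLF-/- (0.24, edgeR adjusted p = 0.103). It was lower in EKLF/GFP+ (-0.72, edgeR adjusted p = 0.000996), where Ripor3 was higher. Around Btn1a1, 20 neighbours were tested, and apart from Hist1h2af 6 were lower in EKLF-/-, all of them histone genes. One of these, Hist1h1e, went from 13 ± 1.65 to 4.85 ± 0.926 CPM (SD, n = 3). Most of these histone genes had few reads in the genotype set and many in the reporter set, as for Hist1h4h with 3.14 and 465 CPM in EKLF+/+ and EKLF/GFP-, and whether the library types differ was not tested. In EKLF/GFP+, 4 of 23 tested neighbours of Btn1a1 were higher, and over all members 17 of 64 were higher and 7 lower, against 18.9% and 25.8% of all genes, with 1 in each direction that passed the filter through 1 group only. Next to Nxpe2, 1 of 4 fell (Nxpe4), and near Ackr3 neither of the 2 annotated neighbours was tested.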

How the data were processed

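The genotype libraries have raw counts per gene, deposited by the authors after alignment with STAR (mm10) and htseq-count. Another 5 repeated columns were not used. For the reporter libraries, the authors deposited Salmon estimated counts and TPM per transcript of GRCm38. Per gene, these were added up and rounded to whole numbers. The authors' normalized counts (a signal made with size factors) served in an alternative. Single-cell values are estimated molecule counts that the authors made with Alevin. The authors' log2 table was not used.

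Genes reaching 10 counts in 3 or more libraries were normalized by TMM and tested two-sided with edgeR 4.0.16 (quasi-likelihood, Benjamini-Hochberg, threshold 0.05; R 4.3.3). CPM are TMM-scaled in bulk and unscaled in single cells. Alternatives used DESeq2 1.42.0, limma 3.58.1, length offsets, other filters and left-out libraries. Cells with at least 200 genes were clustered with Seurat 5.3.0 (4000 variable genes, 30 components, resolution 0.8) and named from fixed markers. Scripts were tested on simulated data.

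The members and lists were chosen with earlier results of these data known. A member has a p-value only in the comparison that did not choose it, where choosing means the first 3 ranks. Slc2a4 and Dmtn held ranks 2 and 3 of the falls in EKLF-/- and are not members. The choice may therefore have drawn on both comparisons, so a member's p-value need not be independent of it. Named besides the members were Klf1, ranking neighbours, globins, called or needed relatives, genes within 250 kb and the 3 most similar genes over clusters. The globins were chosen after their values were seen. The labels call the libraries biological replicates, and p-values measure the spread between them. Depth limits low genes, and intervals and limits on counts of 0 cover counting error only. Results for some listed genes are not reported here.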

Additional observations from a re-analysis of the deposited data

How the results depend on the processing

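Of 192 values of the 9 genes under alternative settings, none reversed and 190 counted as unchanged. For values with a test, unchanged means the same direction and side of the threshold. For values without a test, it means the same direction and a fold within the SD between libraries. The exceptions were both for Ripor3 in the reporter libraries. They had a log2 fold change of 0.83 with transcript length offsets and 0.89 in limma, and the cause was not tested. For values that chose a gene, and for Tecta in the knockout, the direction was set beforehand, so nothing is read from their share of the 190. Leaving out single libraries gave adjusted p-values (edgeR) of at most 0.0161 for Ackr3 and 0.042 for Hsd3b6 in the knockout, and at most 0.0195 for Ripor3 in the reporter libraries. Apol8 and Tecta could not be fitted in the knockout without an EKLF+/+ library, since fewer than 3 libraries then reached 10 counts. The number of genes called lower in EKLF-/- was 575 to 1889 without single libraries, against 1356, and the number called higher 346 to 1730, against 1239. Both counts were lowest without any one of the EKLF+/+ libraries or without EKLF-/- replicate 3, and the cause was not tested. Of the genes called, 47.7% were higher, and 36.9% to 47.8% without single libraries. In the reporter libraries, 2822 to 3457 were lower (3678 in all libraries) and 1917 to 2787 were higher (2696).

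Replicate numbers did not pair the samples, with correlations of same-numbered libraries from -0.004 to 0.056 by genotype and -0.09 to 0.031 by reporter. Reporter libraries with different numbers ran from -0.157 to 0.166. The highest were EKLF/GFP- replicate 2 with EKLF/GFP+ replicate 1 (0.166) and EKLF/GFP- replicate 3 with EKLF/GFP+ replicate 2 (0.162). A pairing under other numbers was not tested. With the replicate number as a block, 1037 genes were lower and 864 higher in EKLF-/-, and 3425 were lower and 2360 higher in EKLF/GFP+. The block changed no call of a tested member. In the knockout the log2 fold changes were -2.06 for Ackr3 and -1.64 for Hsd3b6. In the reporter libraries they were 1.64 for Apol8, 2.10 for BC021767, 1.38 for Btn1a1 and 1.13 for Ripor3. Tecta, whose fall in the knockout was fixed by the filter on low counts, had -5.34 there, and nothing is read from it.

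At a clustering resolution of 0.4 in place of 0.8, the share of counts in erythroid-like clusters was 64.2% in place of 94.8% for Nxpe2, 75.7% in place of 90.0% for Btn1a1 and 20% in place of 32.3% for Ripor3. Scrublet's own threshold marked 0 of 3093 cells and gave no alternative. Leaving out the 2.5% of cells with the highest Scrublet scores was chosen after seeing the data and moved no member's share beyond its interval. Shares of cells with a count fell when cells were thinned to 5000 counts, to 33.4% for Nxpe2, 5.03% for Apol8 and 4.55% for Adra2b in erythroid-like cells.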
